A study of Mus musculus with 6 samples.

Results

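Genes known to answer to glucocorticoids and to fasting, 9 of the 44788 gene symbols counted in mouse tail tendon, are described here, namely Fkbp5, Tsc22d3, Zbtb16, Klf9, Sgk1, Cdkn1a, Txnip, Pdk4 and Pfkfb3. They were chosen by measured values, as genes whose levels differ between libraries more than between genotypes. Their values below are therefore a description, and no p-value is given for any of the 9. All 9 passed the filter on low counts, which kept 14550 genes, and their summed counts made up 0.128% to 0.520% of a library.

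Bulk RNA-seq, in which the RNA of every cell type in the tissue is read as a mixture, was performed on 3 wild-type (WT) libraries and 3 Mkx-/- libraries of tail tendon from C57BL/6 mice. Mkx-/- mice lack Mkx, a homeobox transcription factor of tendon, in the germline and thus in every cell, and came from a line provided by another laboratory. The sample labels give an age of 3 weeks for both groups, while the methods of the study give 4 weeks, and no treatment, diet, fasting state or time of day is given for either group. Whether a library holds the RNA of 1 mouse or of pooled mice is also not given, so the spread between libraries may be in part technical. The libraries held 10835070 to 14160301 counts. Mkx itself had 1825, 1381 and 1685 counts in WT libraries and 620, 589 and 491 counts in Mkx-/- libraries, and the groups did not overlap. The part of Mkx that is deleted was not given in the sources used here, so the remaining counts are left as a measurement. One library stood apart in sex: WT replicate 3 held 301 counts of the Y-linked gene Ddx3y and 1 count of Xist, while each of the other 5 libraries held 0 counts of Ddx3y and at least 1289 of Xist.

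Glucocorticoids are adrenal steroid hormones that follow stress, fasting and the time of day. They bind the glucocorticoid receptor, which then enters the nucleus and binds DNA at glucocorticoid response elements, pairs of inverted half-sites separated by a short gap. Fasting lowers insulin, which allows FOXO transcription factors to enter the nucleus and switch on genes that spare glucose, while a high glucose level acts through the MondoA and ChREBP factors at carbohydrate response elements. Fkbp5, Tsc22d3, Zbtb16, Klf9 and Sgk1 are widely used as readouts of the receptor, and Txnip, Pdk4 and Pfkfb3 belong to the control of glucose use.

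The promoters of 8 of the 9 genes were matched, with 17 listed start sites, to the RefSeq table of promoters in build GRCm38.p6, which holds 250 bases before and 50 after each start. Zbtb16 was not matched. Promoters of Sgk1, Txnip and Klf9 are shown because each holds a letter match that belongs to 1 of these control routes. All are written 5′ to 3′ on the strand of the gene, as the 250 bases before the start, with letter matches in capitals.
Sgk1, chr10:21993640-21993889, plus strand: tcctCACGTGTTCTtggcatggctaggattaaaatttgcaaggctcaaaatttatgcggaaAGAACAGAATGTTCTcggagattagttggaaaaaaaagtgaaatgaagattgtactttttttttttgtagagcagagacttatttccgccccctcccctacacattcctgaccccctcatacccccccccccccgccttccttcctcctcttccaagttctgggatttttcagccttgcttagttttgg
Txnip, chr3:96557707-96557956, plus strand: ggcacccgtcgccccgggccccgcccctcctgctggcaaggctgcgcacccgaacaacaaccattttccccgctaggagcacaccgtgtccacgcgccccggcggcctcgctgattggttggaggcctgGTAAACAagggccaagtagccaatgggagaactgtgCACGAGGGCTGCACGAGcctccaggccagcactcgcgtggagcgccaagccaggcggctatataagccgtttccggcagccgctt
Klf9, chr19:23140976-23141225, plus strand: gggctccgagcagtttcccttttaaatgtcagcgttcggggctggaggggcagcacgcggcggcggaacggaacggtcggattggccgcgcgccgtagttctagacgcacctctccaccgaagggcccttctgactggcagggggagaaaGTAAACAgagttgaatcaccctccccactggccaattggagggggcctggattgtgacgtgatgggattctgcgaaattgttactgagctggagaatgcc

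In Sgk1, the capitals mark a full glucocorticoid response element, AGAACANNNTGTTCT, that begins 189 bases before the start. They also mark, at the left end, an E-box, CACGTG, that begins 246 bases before the start and overlaps a half-site on the other strand. The full element was found in only 3 of 32851 promoters (0.00913%), and this start of Sgk1 is 1 of them. Sgk1 has further listed starts, none of which holds the full element, and this start is shown because it does. Which start is used in tendon was not measured. In Txnip, the capitals mark the FOXO motif TGTTTAC on the other strand, 121 bases before the start, and the paired carbohydrate motif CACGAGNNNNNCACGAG, 85 bases before it. The letters of the carbohydrate motif were taken from what is known of Txnip, so its single match among the 32851 promoters (0.00304%) is no finding. In Klf9, the capitals mark the FOXO motif on the other strand, 100 bases before the start. Motifs were searched on both strands of the whole 300 bases. The FOXO motif was in 3.65% of promoters and in 2 of the 17 listed for the matched genes, at Klf9 and Txnip. The half-site AGAACA, which the full element contains, was in 19.0% of promoters and in 4 of the 17, at Tsc22d3 and Sgk1. The E-box was in 7.15% of promoters and in 3 of the 17, at Fkbp5, Sgk1 and Pfkfb3. A letter match is a description of the window and not a measured binding site.

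Fkbp5 codes for a cochaperone that binds the receptor complex and dampens hormone binding, and its gene spans chr17:28536040-28654469 on the minus strand in build mm9, the build of the deposited counts. Its normalized CPM, the counts relative to a library size that is scaled so that libraries of different composition can be compared, were 317, 229 and 146 in WT replicates 1, 2 and 3, and 157, 161 and 79.3 in Mkx-/- replicates 1, 2 and 3. WT replicate 3 lay below 2 of the Mkx-/- libraries, so the groups overlapped. WT libraries averaged 231 ± 85.5 CPM and Mkx-/- libraries 133 ± 46.2 CPM (SD, n = 3 each). The fitted log2 fold change, Mkx-/- over WT here and below, was -0.80 (SE 0.33).

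Tsc22d3, also called GILZ, codes for a leucine zipper protein that mediates anti-inflammatory effects of glucocorticoids, and lies at chrX:137074067-137135198 on the minus strand (mm9). Its levels were 825, 544 and 398 CPM in the WT libraries and 467, 540 and 290 CPM in the Mkx-/- libraries. WT replicate 1 stood highest, WT replicate 2 and Mkx-/- replicate 2 were within 4 CPM of each other, and Mkx-/- replicate 3 stood lowest. The log2 fold change was -0.45 (SE 0.30).

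Zbtb16, also called PLZF, codes for a zinc finger repressor and lies at chr9:48462416-48644050 on the minus strand (mm9). It was measured at 135, 82.4 and 46.2 CPM in WT libraries and at 58.4, 69.6 and 35.9 CPM in Mkx-/- libraries. The spread within WT, 2.91-fold from lowest to highest, enclosed 2 of the 3 Mkx-/- values. Its log2 fold change was -0.68 (SE 0.37). Fkbp5, Tsc22d3 and Zbtb16 placed the 6 libraries in the same order, from WT replicate 1 through WT replicate 2, Mkx-/- replicate 2, Mkx-/- replicate 1 and WT replicate 3 down to Mkx-/- replicate 3.

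Klf9, a Krüppel-like transcription factor that glucocorticoids and thyroid hormone induce, lies at chr19:23215716-23241401 on the plus strand (mm9) and was the steadiest of the 9. It had 245, 182 and 185 CPM in WT libraries and 181, 190 and 137 CPM in Mkx-/- libraries, so its highest library was 1.34 times its lowest in WT and 1.38 times in Mkx-/- tendons. The log2 fold change was -0.27 (SE 0.18), and Mkx-/- replicate 2 lay above 2 of the WT libraries.

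Sgk1, the serum- and glucocorticoid-regulated kinase, a promoter of which is shown above, lies at chr10:21601990-21719709 on the plus strand (mm9). It was at 163, 122 and 120 CPM in WT libraries and at 150, 188 and 106 CPM in Mkx-/- libraries. Mkx-/- libraries held both its highest and its lowest value. The WT mean of 135 ± 23.8 CPM and the Mkx-/- mean of 148 ± 41.3 CPM (SD, n = 3 each) gave a log2 fold change of 0.13 (SE 0.22).

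Cdkn1a, which codes for the cell cycle inhibitor p21 and is induced by p53 as well as by glucocorticoids and FOXO factors, lies at chr17:29227924-29237667 on the plus strand (mm9). It had 194, 127 and 81.6 CPM in WT libraries and 139, 245 and 184 CPM in Mkx-/- libraries. WT replicate 1 lay above 2 of the Mkx-/- libraries and the remaining 2 WT libraries lay below all 3. The log2 fold change was 0.50 (SE 0.32), and this gene and Sgk1 were the only ones of the 9 with a positive value.

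Txnip, the thioredoxin-interacting protein, an arrestin that lowers glucose uptake, lies at chr3:96361880-96365806 on the plus strand (mm9). Its levels were 3129, 643 and 450 CPM in WT libraries and 846, 1351 and 519 CPM in Mkx-/- libraries. WT replicate 1 alone was over 2 times any other library, and with 39719 counts Txnip took 0.314% of all counts there, against 0.0397% in WT replicate 3. With means of 1407 ± 1494 CPM for WT and 905 ± 419 CPM for Mkx-/- libraries (SD, n = 3 each), the log2 fold change was -0.64 (SE 0.68). The annotation places the noncoding gene Gm15441 on the opposite strand of Txnip, and the strand rule of the counting was not given. Gm15441 had 3 to 7 counts per library.

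Pdk4, pyruvate dehydrogenase kinase 4, blocks the entry of pyruvate into the citric acid cycle in fasting, and lies at chr6:5433351-5446309 on the minus strand (mm9). It had 65.8, 13.2 and 9.45 CPM in WT libraries and 28.8, 39.5 and 7.93 CPM in Mkx-/- libraries. Both groups held libraries near 8 to 9 CPM and libraries several times higher. Pdk4 had 100 to 835 counts per library, and sampling of reads alone gives a coefficient of variation of 5.39% at its mean. Its log2 fold change in the fit was -0.22 (SE 0.76), while the plain difference of mean log2 CPM was 0.05, so not even its sign was the same on the 2 scales.

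Pfkfb3 codes for the enzyme that makes fructose 2,6-bisphosphate, an activator of glycolysis, and lies at chr2:11393057-11423728 on the minus strand (mm9). It was at 105, 21.8 and 12.1 CPM in WT libraries and at 27.8, 34.6 and 15.1 CPM in Mkx-/- libraries. Its WT values ran over an 8.66-fold range, the widest of the 9, and enclosed all 3 Mkx-/- values. The log2 fold change was -0.84 (SE 0.70).

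**Figure D1:**
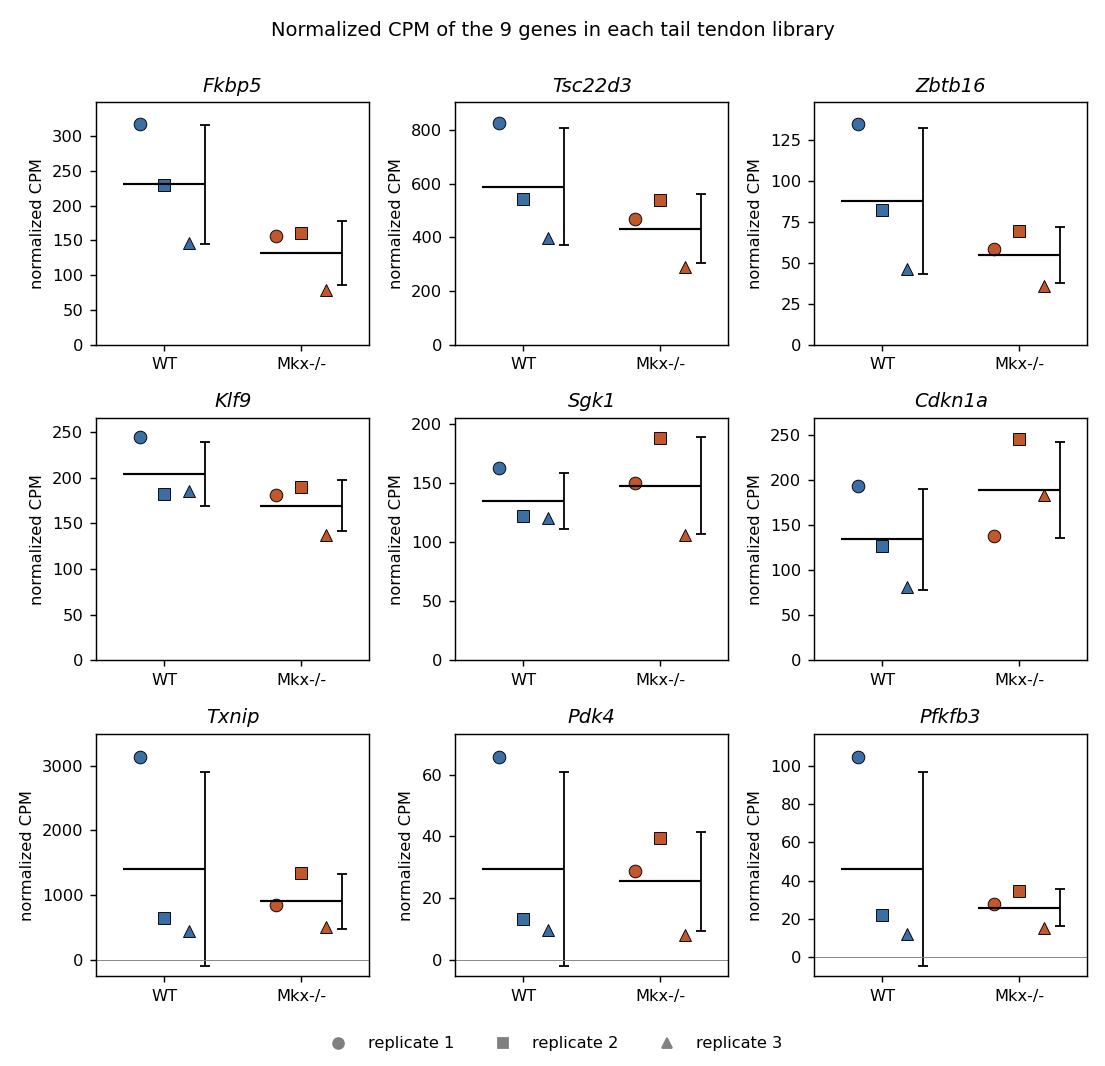
Normalized CPM of each of the 9 genes (vertical axes, linear and different for each gene) in the 3 WT and 3 Mkx-/- tail tendon libraries, with symbols for the replicate number, horizontal lines for means and bars for the SD (n = 3). In every panel the circle of WT replicate 1 is the highest WT value and the square of Mkx-/- replicate 2 the highest Mkx-/- value, as for Txnip at 3129 and 1351 CPM.

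The size of the genotype difference was set beside the spread between libraries on the log2 CPM scale. For 6 of the 9 genes the difference of the genotype means was smaller than the SD within genotypes, as it was for 49.1% of all tested genes, and the members were chosen for this. Pdk4 differed by 0.05 between genotypes with an SD of 1.36, Txnip by -0.20 with an SD of 1.16, and Pfkfb3 by -0.31 with an SD of 1.21. These 3 SDs lay at or above the 98.7th percentile of all tested genes. Zbtb16 (difference -0.60, SD 0.65), Tsc22d3 (-0.43, SD 0.50) and Sgk1 (0.11, SD 0.34) made up the 6.

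For the other 3 genes the difference exceeded the SD. Fkbp5 differed by -0.80 with an SD of 0.57, Klf9 by -0.27 with an SD of 0.24, and Cdkn1a by 0.54 with an SD of 0.53, so Klf9 and Cdkn1a lay just outside the line where the difference equals the SD, and Tsc22d3 and Zbtb16 just inside it. Genotype accounted for 42.5% of the variance of Fkbp5 over the 6 libraries but for 0.0418% of that of Pdk4. The median over the 9 genes was 21.7%, against 28.2% over all tested genes. The median SD within genotypes was 0.57 for the 9 genes and 0.24 for all tested genes, and Klf9 was nearest to that of all genes, at the 52.5th percentile. The median log2 fold change was -0.45 for the 9 genes, of which 7 lay below and 2 above the median of 0.00 for all tested genes.

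**Figure D2:**
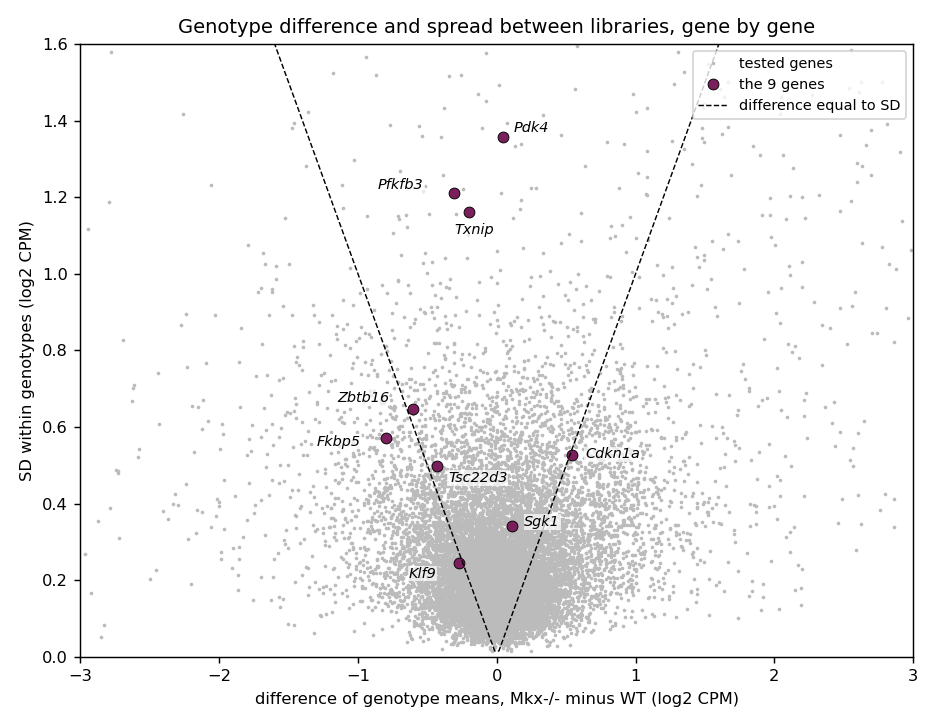
SD within genotypes (vertical axis, log2 CPM) against the difference of genotype means, Mkx-/- minus WT (horizontal axis, log2 CPM), with the 14550 tested genes in grey, of which 115 fall beyond the axes, and the 9 genes in purple. Dashed lines mark a difference equal to the SD. Txnip, Pdk4 and Pfkfb3 stand far above the line with SDs of 1.16 to 1.36, and Fkbp5 lies below it.

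By the thresholds of the study, an adjusted p under 0.05 and a fold change over 2, edgeR's quasi-likelihood test with Benjamini-Hochberg adjustment called 1.89% of the tested genes upregulated and 1.33% downregulated in Mkx-/- tendons, and 0 of the 9 genes in either direction. DESeq2 also called 0 of the 9. Groups that did not overlap were found for 28.2% of tested genes and for 0 of the 9. Because the 9 were chosen on this contrast, nothing is read from these counts. Fewer cells of a type and less RNA per cell cannot be told apart in such whole-tissue values.

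One library decided the sign of 3 genes. Without WT replicate 1, the log2 fold changes became 0.73 for Txnip, 1.17 for Pdk4 and 0.62 for Pfkfb3, in each case from a negative to a positive value. Sgk1 turned to -0.08 without Mkx-/- replicate 2, and Pdk4 to a positive value without Mkx-/- replicate 3. Fkbp5, Tsc22d3, Zbtb16, Klf9 and Cdkn1a kept their sign with each library left out in turn. Fkbp5 ran from -1.06 without WT replicate 3 to -0.50 without WT replicate 1, and Cdkn1a from 0.22 without WT replicate 3 to 0.86 without WT replicate 1.

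The 9 genes had the same highest libraries. WT replicate 1 was the highest WT library and Mkx-/- replicate 2 the highest Mkx-/- library for 9 of the 9, a pattern found for 18.8% of all tested genes. This pattern was noticed in these libraries and then counted, and the members were chosen with it known. The highest of all 6 libraries was WT replicate 1 for 7 genes and Mkx-/- replicate 2 for Sgk1 and Cdkn1a. The lowest was Mkx-/- replicate 3 for 6 genes and the male library, WT replicate 3, for Cdkn1a, Txnip and Pfkfb3. The part of sex in this order was not tested. For 4 of the 9 genes, Fkbp5, Txnip, Pdk4 and Pfkfb3, the range was at least 2-fold in both genotypes, which held for 5.11% of all tested genes.

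**Figure D3:**
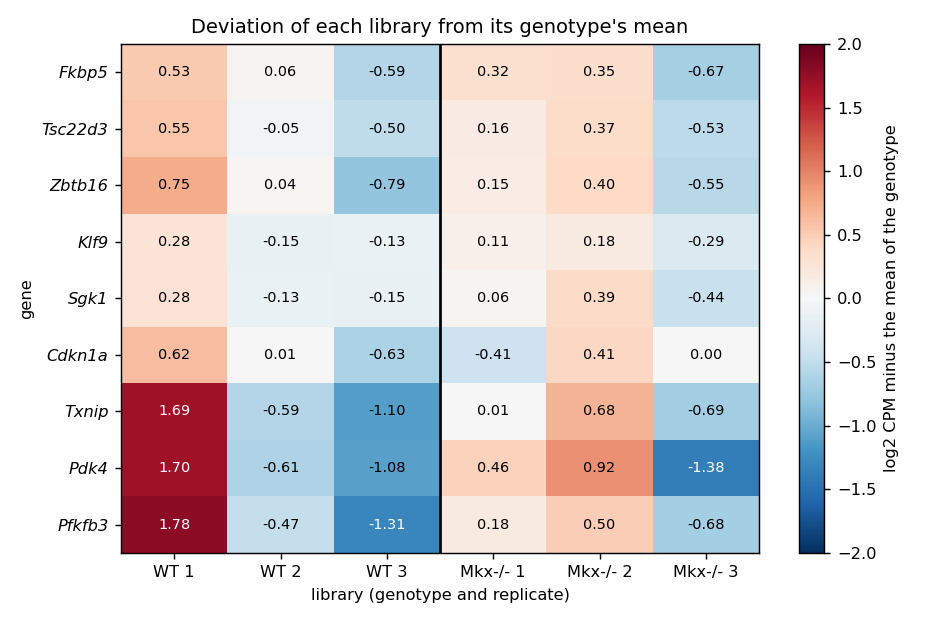
Deviation of each library from the mean of its own genotype (colour and printed value, log2 CPM) for the 9 genes in rows and the 6 libraries in columns. WT replicate 1 lies above its genotype's mean for every gene, by 0.28 for Klf9 to 1.78 for Pfkfb3, and Mkx-/- replicate 2 by 0.18 for Klf9 to 0.92 for Pdk4.

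Among the 9, the smallest distances between profiles lay within sets of related genes, but not every distance within a set was small. The profile of a gene was taken as its log2 CPM in the 6 libraries less its mean, and profiles were compared by their root mean square difference. Txnip and Pfkfb3 differed by 0.16, with the same order of libraries, and Pdk4 by 0.37 from Txnip and 0.41 from Pfkfb3. Of the receptor readouts, Fkbp5, Tsc22d3 and Zbtb16 differed from each other by 0.17 to 0.21, and Klf9 and Sgk1 by 0.22. Tsc22d3 differed by 0.245 from Klf9 and by 0.328 from Sgk1. Fkbp5 and Zbtb16 differed by 0.4 and 0.405 from Klf9 and by 0.523 and 0.488 from Sgk1, beside 0.54 between Zbtb16 and Txnip. Cdkn1a was nearest to Sgk1 at 0.42. The measure is not scaled to how much a gene varies, so genes that vary little lie close together. All of these values are over the same 6 libraries, share their scaling, and carry no test.

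Over the tested genes whose mean reached 5 CPM, the 3 nearest profiles were found for each of the 9. For Txnip they were Adck3 (0.16), Pfkfb3 (0.16) and Mettl7a1 (0.20). Pdk4 had Adck3 (0.27), Txnip and Pfkfb3, and Pfkfb3 had Txnip, Mettl7a1 (0.23) and Adck3 (0.25), so Adck3 was among the 3 nearest for each of these genes. Adck3, a mitochondrial protein of coenzyme Q synthesis, stood at 133, 29.2 and 20.03 CPM in WT libraries and 37.8, 68.4 and 18.2 CPM in Mkx-/- libraries. The profiles nearest to Fkbp5 were Hrct1 (0.12), Zbtb16 and Ovgp1 (0.18), those nearest to Tsc22d3 were Atp6v0a4 (0.08), Pcgf5 and Znhit6, and those nearest to Zbtb16 were Rps13-ps1 (0.14), Tsc22d3 and Fkbp5. Rps13-ps1 is a pseudogene whose reads may belong to its parent gene. Among those nearest to Cdkn1a were Hist3h2a (0.13) and Pgm2l1 (0.14). Klf9 had Ddx20, Ankrd16 and Scaf11 within 0.05, and Sgk1 had Zrsr1 (0.076), Ampd3 (0.0871) and Frmd4b (0.0933).

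Compared per length of exon, the abundance of the 9 genes ranged widely. In CPM per kilobase, the lowest, median and highest library were 148, 246 and 1032 for Txnip and 66.9, 116 and 190 for Tsc22d3, and Txnip lay above Tsc22d3 in each library. Cdkn1a (36.7, 72.6 and 110) and Klf9 (42.1, 56.3 and 75.0) followed, with ranges that overlapped. Sgk1 (21.6, 27.8 and 38.4) and Fkbp5 (12.6, 25.2 and 50.2) also overlapped, and so did Fkbp5 and Zbtb16 (7.04, 12.6 and 26.4). Pdk4 (2.26, 5.97 and 18.7) and Pfkfb3 (1.72, 3.52 and 14.9) were the least abundant per length. The ranges of neighbours in this order overlapped, except those of Klf9 and Sgk1.

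The genes around the 9 were described from lists, with the members left out and the share of called genes among all tested genes as background. The receptor itself, Nr3c1, was measured at 99.97, 74.6 and 87.2 CPM in WT libraries and at 54.3, 63.4 and 56.0 CPM in Mkx-/- libraries. The groups did not overlap, and the log2 fold change was -0.59 with an adjusted p of 0.0502 in edgeR's quasi-likelihood test, just above the threshold of 0.05. The adjusted p was under 0.05 in 6 of 14 alternatives, DESeq2 among them, and ran from 0.00852 to 0.259 over all 14. Hsd11b1, the enzyme that reactivates the hormone inside cells, had 4 to 20 counts per library. Of the 17 tested genes of the receptor, its enzymes, chaperones and coregulators, edgeR found 0 past an adjusted p of 0.05, and DESeq2 found 2 lower. At an unadjusted p under 0.05, edgeR found 2 of the 17 higher and 2 lower. Among all 14550 tested genes it found 1812 higher and 1476 lower at that threshold. Fkbp4, the close relative of Fkbp5 with an opposing role at the receptor, varied little, from 43.5 to 55.5 CPM over the 6 libraries.

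Of 27 tested genes known to be induced by glucocorticoids, edgeR called 3 downregulated and 1 upregulated in Mkx-/- tendons, beside 1.33% and 1.89% of all tested genes. With single libraries left out these counts ran from 0 to 3 and from 0 to 2, with 0 downregulated without Mkx-/- replicate 3 and 1 without WT replicate 2 or Mkx-/- replicate 1. The median log2 fold change was -0.19, against 0.00 for all tested genes. Errfi1, a feedback inhibitor of the EGF receptor, fell from 804, 436 and 260 CPM in WT libraries to 72.1, 139 and 57.1 CPM in Mkx-/- libraries (log2 fold change -2.49, edgeR adjusted p = 0.0220). Ddit4, an inhibitor of mTOR signalling, fell from 333, 224 and 153 CPM to 81.3, 92.6 and 48.3 CPM (log2 fold change -1.68, edgeR adjusted p = 0.0247). Dusp1, a phosphatase of MAP kinases, fell from 292, 153 and 187 CPM to 94.9, 97.8 and 79.2 CPM (log2 fold change -1.22, edgeR adjusted p = 0.0248). In all 3, every WT library lay above every Mkx-/- library, and within each genotype the highest libraries were the same as for the 9 genes.

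Plin4, a lipid droplet protein, was the gene called upregulated, at 9.69, 5.59 and 5.77 CPM in WT and 18.7, 25.2 and 16.5 CPM in Mkx-/- libraries (log2 fold change 1.52, edgeR adjusted p = 0.0159). Mertk, a receptor for the clearance of dying cells, fell from 144, 126 and 115 CPM to 69.7, 72.3 and 53.3 CPM (log2 fold change -0.98, edgeR adjusted p = 0.0124), a change under 2-fold. Macrophages express Mertk. Of 11 tested macrophage and leukocyte markers, 3 were lower at an edgeR adjusted p under 0.05, beside 329 of all 14550 tested genes. They were Emr1 (log2 fold change -1.09), Mrc1 (-1.14) and Csf1r (-0.63). With single libraries left out this count ran from 1 to 3. At an unadjusted p under 0.05 in edgeR, 9 of the 11 were lower, beside 1476 of all tested genes. The summed level of the 11 markers was 541 to 588 CPM in WT and 346 to 422 CPM in Mkx-/- libraries. Their part in the value of Mertk was not tested. Zfp36, which destabilizes inflammatory mRNAs, fell from 65.8, 41.8 and 46.9 CPM to 30.6, 32.1 and 26.9 CPM (log2 fold change -0.79, edgeR adjusted p = 0.0454) and is named because it completes the 5 genes of the list that were lower at an adjusted p under 0.05. Leaving out a library, which also leaves fewer libraries to test, raised several of these adjusted p-values above 0.05. The log2 fold changes stayed large, from -2.95 to -1.96 for Errfi1 and from -1.92 to -1.35 for Ddit4 over the 14 alternatives. Without WT replicate 2 the adjusted p was 0.0692 for Errfi1, 0.0814 for Ddit4, 0.0566 for Mertk and 0.0736 for Plin4. Without WT replicate 3 it was 0.0645 for Dusp1 and 0.0722 for Plin4, and without Mkx-/- replicate 2 it was 0.0713 for Dusp1 and 0.0508 for Plin4. Without Mkx-/- replicate 1 it was 0.0671 for Errfi1, 0.0571 for Ddit4 and 0.0572 for Dusp1, and without Mkx-/- replicate 3 it was 0.0728, 0.0667 and 0.0917 for the same 3 genes. Dusp1 also fell by less than 2-fold without WT replicate 1 (log2 fold change -0.91) and with total counts only, which ended its call. Over the 14 alternatives the adjusted p reached from 3.08e-05 to 0.0728 for Errfi1, from 1.55e-06 to 0.0814 for Ddit4, from 1.65e-05 to 0.0917 for Dusp1, from 3.39e-06 to 0.0566 for Mertk and from 9.09e-06 to 0.0736 for Plin4, and no alternative turned a sign. For Zfp36 only the counts of lower genes in the list were kept under them. By these counts its adjusted p was not under 0.05 with the replicate block or with total counts only. Nor was it under 0.05 without WT replicate 2, WT replicate 3 or any single Mkx-/- library.

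**Figure D4:**
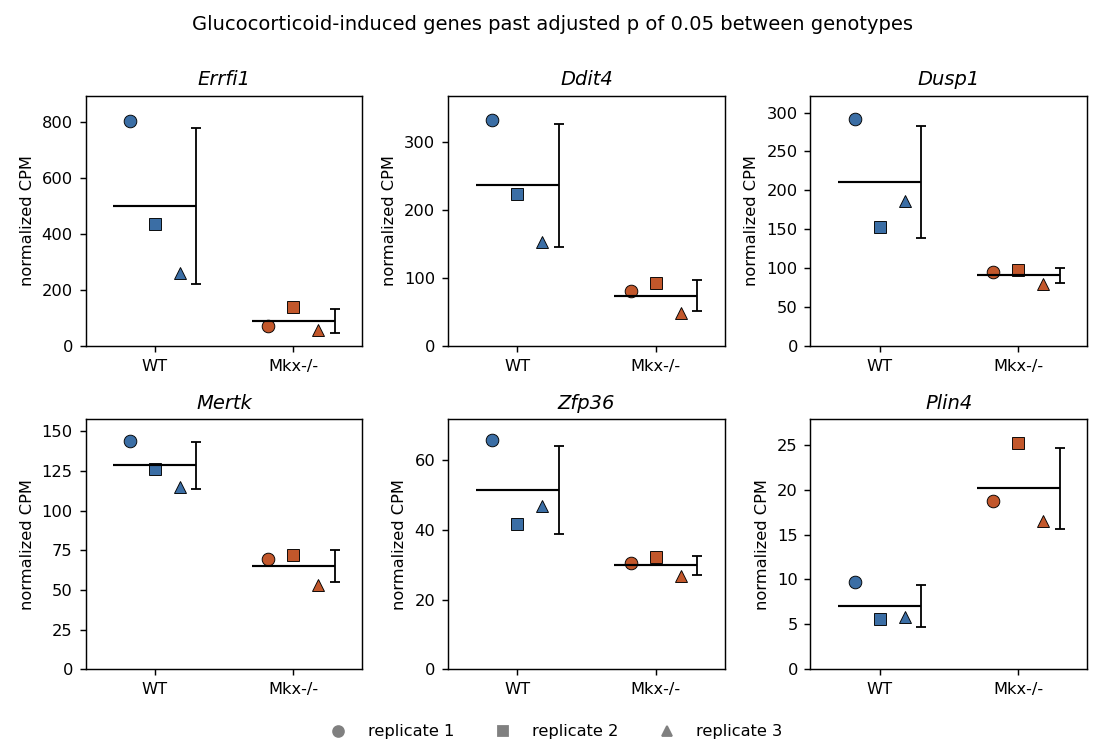
Normalized CPM (vertical axes, linear and different for each gene) of the 6 listed glucocorticoid-induced genes past an edgeR adjusted p of 0.05, in 3 WT and 3 Mkx-/- libraries, with symbols for the replicate number, lines for means and bars for the SD (n = 3). The groups do not overlap in any panel, and Errfi1 goes from 260 to 804 CPM in WT libraries to 57.1 to 139 CPM in Mkx-/- libraries.

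Other genes of that list varied between libraries with no call between genotypes. Glul, the glutamine synthetase, had 437, 227 and 153 CPM in WT libraries and 233, 398 and 181 CPM in Mkx-/- libraries (log2 fold change -0.01), and Map3k6 had 185, 99.1 and 60.9 CPM against 51.8, 94.8 and 28.5 CPM (log2 fold change -0.98, edgeR adjusted p = 0.278). Per1, the clock gene that glucocorticoids induce, did not share the highest libraries, at 187, 205 and 160 CPM in WT and 227, 204 and 155 CPM in Mkx-/- libraries. These 3 were chosen after their values were seen. In total, 20 of the 27 genes (74.1%) had WT replicate 1 and Mkx-/- replicate 2 as their highest libraries, beside the 18.8% of all tested genes. The lists were chosen with earlier results of these data known. The median SD within genotypes was 0.413 log2 CPM for this list and 0.235 for all tested genes. It was 0.437 for the FOXO and fasting list and 0.553 for the inflammatory genes that glucocorticoids repress, both counted below. The part of this spread in the shares was not tested.

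Among 26 tested FOXO targets and fasting-induced genes, 19 (73.1%) had the same highest libraries, while 0 were called between genotypes by edgeR. At an unadjusted p under 0.05 in edgeR, 1 was higher and 4 were lower, beside 1812 and 1476 of all 14550 tested genes. DESeq2 called 1 downregulated. Foxo1, a FOXO factor, had 124, 108 and 111 CPM in WT and 77.9, 84.4 and 69.5 CPM in Mkx-/- libraries (log2 fold change -0.57, edgeR adjusted p = 0.0404). This adjusted p was above 0.05 with each of the 6 libraries left out, with the replicate number as a block (0.0904) and with total counts, and it ran from 0.00396 to 0.222 over 14 alternatives. Angptl4, an inhibitor of lipoprotein lipase that fasting induces, had 335, 97.5 and 34.7 CPM in WT and 82.4, 137 and 31.3 CPM in Mkx-/- libraries, and Klf15, which glucocorticoids also induce, had 78.5, 34.2 and 30.3 CPM in WT and 30.6, 39.1 and 22.1 CPM in Mkx-/- libraries. Both followed Txnip in their highest libraries and were chosen after their values were seen. Of 8 tested lipogenic genes that feeding induces, 1 (12.5%) had these highest libraries, 0 were called by edgeR or DESeq2, and 0 had an unadjusted p under 0.05 in edgeR.

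The relatives of Txnip, Pdk4 and Pfkfb3 were also counted. Of 15 tested genes of glucose sensing and thioredoxin, 6 (40%) had the same highest libraries, and edgeR called 1 upregulated. Arrdc4, the arrestin nearest to Txnip in the glucose response, was among them with 34.9, 15.6 and 13.1 CPM in WT and 26.4, 32.7 and 19.0 CPM in Mkx-/- libraries. Slc2a4, the insulin-responsive glucose transporter, was not: it rose from 1.18, 1.08 and 1.28 CPM to 5.40, 5.48 and 7.21 CPM (log2 fold change 2.34, edgeR adjusted p = 0.00216, at most 0.0173 over 14 alternatives). Skeletal muscle carries this transporter, and the summed muscle markers stood at 446, 103 and 301 CPM in WT and 3210, 1536 and 608 CPM in Mkx-/- libraries. Their part in the value of Slc2a4 was not tested.

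Of 19 tested genes of pyruvate dehydrogenase and phosphofructokinase control, 3 (15.8%) had the highest libraries of the 9. Pdk1, a relative of Pdk4 that hypoxia induces, fell from 43.0, 42.9 and 43.9 CPM to 29.5, 23.0 and 21.7 CPM (log2 fold change -0.81, edgeR adjusted p = 0.0183), and Pdp1, the opposing phosphatase, rose from 20.1, 17.8 and 18.1 CPM to 34.9, 33.3 and 30.8 CPM (log2 fold change 0.82, edgeR adjusted p = 0.00892). Pdk3 was called upregulated, from 2.36, 4.12 and 3.93 CPM to 7.51, 6.46 and 8.40 CPM (log2 fold change 1.11, edgeR adjusted p = 0.0418). Pdk2 was at 99.0, 75.8 and 54.3 CPM in WT and 66.5, 67.5 and 50.9 CPM in Mkx-/- libraries. The adjusted p of Pdk1 was above 0.05 without WT replicate 2, WT replicate 3, Mkx-/- replicate 2 or Mkx-/- replicate 3 (adjusted p 0.0678, 0.0699, 0.0755 and 0.0675). So was that of Pdp1 without WT replicate 2 or 3 (0.0523 and 0.0512). The call of Pdk3 was lost with the replicate block (0.0794) and with each library left out. Without WT replicate 1 its log2 fold change was 0.89, under 2-fold, and without any other library its adjusted p was 0.0806 to 0.134. The adjusted p over 14 alternatives ran from 0.000284 to 0.0755 for Pdk1, from 9.21e-05 to 0.0523 for Pdp1 and from 0.00844 to 0.134 for Pdk3.

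In the other lists this share ran from 0% to 41.7%. The same highest libraries were found for 5 of 12 targets of p53 (41.7%), 6 of 16 relatives of Tsc22d3, Sgk1, Klf9 and Cdkn1a (37.5%), 5 of 16 clock genes (31.2%), 4 of 19 immediate early and heat shock genes (21.1%), 3 of 17 genes of the receptor machinery (17.6%) and 0 of 7 inflammatory genes that glucocorticoids repress. Of these, the immediate early list held 2 called downregulated and 1 upregulated gene, the clock list 1 in each direction and the inflammatory list 1 upregulated gene, beside 1.33% downregulated and 1.89% upregulated among all tested genes. With single libraries left out, the immediate early list held 1 to 3 downregulated and 0 to 3 upregulated genes, the clock list 0 to 1 downregulated and 1 upregulated gene, and the inflammatory list 0 to 1 upregulated gene. No immediate early gene was called upregulated without WT replicate 2 or Mkx-/- replicate 3, against 3 without Mkx-/- replicate 1. No clock gene was called downregulated without WT replicate 2, Mkx-/- replicate 1 or Mkx-/- replicate 3. The inflammatory gene, Icam1, was called only without WT replicate 1 or Mkx-/- replicate 2 among the libraries left out, and its call was also lost with the replicate block. The p53 list, which bears on Cdkn1a, held 0 called genes in edgeR and in DESeq2. At an unadjusted p under 0.05 in edgeR it held 3 higher and 1 lower, beside 1812 and 1476 of all 14550 tested genes. Klf11, a relative of Klf9, had 36.9, 12.7 and 9.37 CPM in WT and 20.2, 26.3 and 14.7 CPM in Mkx-/- libraries, and was chosen after its values were seen.

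**Figure D5:**
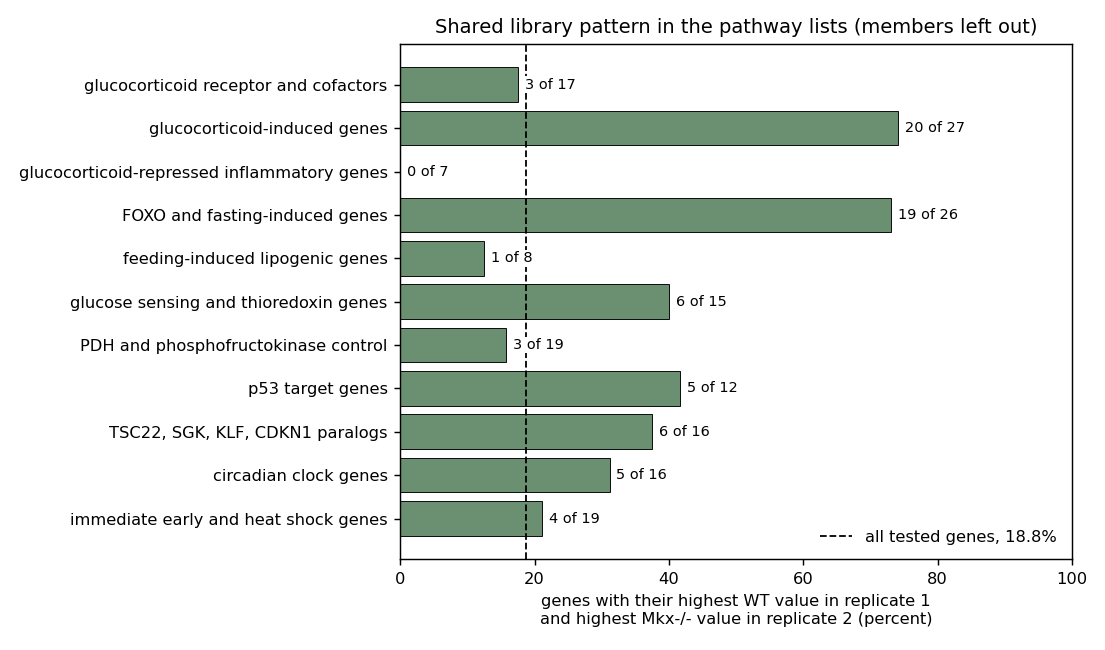
Percent of tested genes of each pathway list (bars, with counts) whose highest WT value was in replicate 1 and whose highest Mkx-/- value was in replicate 2, with the 9 genes left out and a dashed line at the 18.8% of all tested genes. The glucocorticoid-induced and FOXO and fasting lists stand at 74.1% and 73.1%, and the receptor machinery at 17.6%.

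Some markers of other cell types had the highest libraries of the 9 genes. Of 6 tested red blood cell genes, 5 (83.3%) had the same highest libraries, and the summed level of the list was 455, 85.5 and 104 CPM in WT and 62.2, 94.3 and 52.1 CPM in Mkx-/- libraries. Hbb-bs, a haemoglobin gene, was at 193 CPM in WT replicate 1 and at 23.4 to 51.1 CPM in the other 5 libraries, and reads of the near-identical haemoglobin genes may be split between copies. Of 3 tested adipocyte genes, 3 had the same highest libraries, with a summed level over all 9 listed genes of 14.1, 8.93 and 8.57 CPM in WT and 22.4, 32.7 and 22.2 CPM in Mkx-/- libraries. The defining adipocyte genes Adipoq and Plin1 had at most 9 and 2 counts in a library, and Plin4 is in both this list and the glucocorticoid-induced list. Plin4 alone gave 9.69 CPM of that sum in WT replicate 1 and 25.2 CPM in Mkx-/- replicate 2. The listed genes below the count filter did not all follow. Cfd had 1, 6 and 6 counts in WT and 4, 19 and 17 in Mkx-/- libraries. Lep had 10, 5 and 11 counts in WT and 0 in each Mkx-/- library.

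Among markers of the remaining types, the shared highest libraries were found for 0 of 8 tendon genes, 1 of 15 muscle genes, 0 of 11 endothelial genes, 3 of 11 macrophage genes, 0 of 9 Schwann cell genes, 0 of 7 keratinocyte genes and 1 of 5 osteoblast and cartilage genes. Tendon genes defined the tissue in every library, with Tnmd at 886 to 1292 CPM and Fmod at 15622 to 19825 CPM. Col1a1, Col1a2 and Sparc together took 28.4% to 48.5% of the counts. The part of blood, fat or any other cell type in the levels of the 9 genes was not tested.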

How the data were processed

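Total RNA of tail tendons was sequenced on the Ion Proton system. The authors trimmed adaptors, dropped reads of low quality, mapped the rest to mouse build mm9 with MapSplice and deposited raw counts per gene symbol, not normalized. The counting program and its use of strand and multiply mapped reads were not given in the sources used here. The labels matched each of the 6 columns to a sample, with 0 unused columns. No read was counted in any library for 19011 of the 44788 symbols. Depth was 10835070 to 14160301 counts per library, and chi-square per degree of freedom between replicates was 8.27 to 40.4, so no library was a repeat of another.

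From the deposited counts, CPM scaled with TMM factors, log2 CPM with a prior count of 2, filterByExpr and the quasi-likelihood fit on genotype were obtained in edgeR 4.0.16 (R 4.3.3), with Benjamini-Hochberg adjustment over all tested genes. P-values set a genotype difference against the spread between these libraries, estimated with information shared between genes. DESeq2 1.42.0, RLE, upper-quartile and total-count scaling, looser (1 count in any library) and stricter (10 counts in every library) filters, a robust fit, a prior count of 0.5, a block for the replicate number and leaving out each library were alternatives. The scripts were checked on simulated counts.

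The 9 members and the 11 pathway and 9 cell type lists were chosen with earlier results of these data known. Named in the text are the members, the checks of the labels, at most the 5 genes of a list with the smallest p, called genes of a list, close relatives of members, the 3 nearest profiles of each member, and genes said to be chosen after their values were seen. Gene coordinates and exon lengths come from GENCODE for mm9, and promoters those of RefSeq in GRCm38.p6. A few results that these rules cover are not reported here.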

Additional observations from a re-analysis of the deposited data

How the results depend on the processing

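Genes called between genotypes numbered 275 upregulated and 193 downregulated. With total counts only, 711 were called upregulated and 154 downregulated, and the median log2 fold change of all tested genes rose by 0.25; with genes of at least 1 count in any library kept, 541 were called upregulated and 322 downregulated. Leaving out single libraries gave 103 to 321 upregulated and 112 to 248 downregulated genes. The cause was not tested. With total counts only, 12 genes of the pathway lists were called upregulated in place of 6; DESeq2 called 10 downregulated and the filter of 1 count 12, in place of 6. Single libraries left out gave 2 to 8 upregulated (2 without WT replicate 2, 3 without WT replicate 3 or Mkx-/- replicate 3) and 1 to 5 downregulated (1 without Mkx-/- replicate 3, 3 without Mkx-/- replicate 1) in these lists. Deviations of same-numbered libraries of the 2 genotypes from their group means correlated at 0.03, -0.29 and 0.37 for numbers 1, 2 and 3 over 10295 genes, not above 0.1 for every number, so the libraries were not treated as paired. WT replicate 1 and Mkx-/- replicate 2, the highest libraries of the 9 genes, correlated at 0.50. The replicate block called 195 genes upregulated and 136 downregulated, and turned the sign of Pdk4. RLE and upper-quartile scaling, the stricter filter and the robust fit gave counts within 1.5 times of those above.

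The genotype difference was smaller than the SD for 6 members, for 8 with total counts only, and for 5 to 7 with single libraries left out. The shared highest libraries held for 9 of 9 members under RLE, upper-quartile and total-count scaling, which were tried for this count after the data were seen. They held for 20, 20 and 21 of 27 glucocorticoid-induced genes and for 19, 19 and 21 of 26 FOXO and fasting genes, beside 18.9%, 17.7% and 29.7% of all tested genes. At this depth Hsd11b1, with 4 to 20 counts, could not be compared, and the standard errors of Txnip, Pdk4 and Pfkfb3 were 0.68, 0.76 and 0.70 on the log2 scale.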

Other observations

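Arrdc3, an arrestin related to Txnip, was at 215, 46.1 and 45.3 CPM in WT libraries and 101, 152 and 65.2 CPM in Mkx-/- libraries, with a log2 fold change of 0.05. Sesn1, a stress-induced inhibitor of mTOR signalling, was at 199, 85.5 and 76.3 CPM in WT libraries and 166, 193 and 106 CPM in Mkx-/- libraries. Bnip3, a mitophagy receptor that FOXO3 and hypoxia induce, was at 83.9, 23.6 and 23.3 CPM in WT libraries and 19.97, 31.5 and 15.5 CPM in Mkx-/- libraries. All 3 had WT replicate 1 and Mkx-/- replicate 2 as their highest libraries, like the 9 genes described above, and were chosen after their values were seen. Hlf, a clock-controlled transcription factor, did not share the pattern and rose from 1.89, 1.96 and 1.68 CPM to 7.14, 5.90 and 7.77 CPM (log2 fold change 1.91, edgeR adjusted p = 0.00307, at most 0.0218 over 14 alternatives).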
